A study of Mus musculus with 8 samples.

Results

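The interferon-induced transmembrane genes Ifitm1, Ifitm2, Ifitm3 and Ifitm6, together with Bst2, were followed across the cell classes of erythroblastic island preparations, with the stages of the neutrophil line kept apart. These 5 genes were taken by name from the 19669 gene rows of a single-cell count table, and all 5 had a row. The mice were males of the strain Sle1.Yaa, which is prone to lupus. Per the labels, 2 marrow and 2 spleen libraries were from mice that carried a human TLR8 transgene and were marked as anemic, and 3 marrow libraries and 1 spleen library were from Sle1.Yaa controls marked as non-anemic. All groups share the Sle1.Yaa background, so none is a non-autoimmune mouse, and the labels used here give no promoter for the transgene. Islands, in which red cell precursors surround a macrophage, were enriched on albumin gradients and taken apart with EDTA and mild mechanical force before 10x v3.1 sequencing.

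The columns of the table were cell barcodes with no library name, so no cell could be given a group and transgenic and control mice were not compared. All values describe 24942 pooled cells. Barcodes restarted alphabetically to give 8 sorted runs, which were treated as unnamed libraries. Runs held 447 to 6787 cells and 6195876 to 48442321 UMIs (unique molecular identifiers, each standing for 1 captured RNA), and the median cell had 7554 UMIs. In all, 1031 cells shared 1 of 287 barcodes with a cell of another run, and leaving them out moved no count of called members by over 1.5 times. Scrublet called only 17 doublets. Whether doublets were missed or had been removed before deposit was not tested, so doublets may remain in every class.

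Ifitm proteins are small membrane proteins that hinder the entry of many enveloped viruses at the cell surface or in endosomes, and Ifitm3 is the member best known for acting in late endosomes. Ifitm1 lies mainly at the plasma membrane, and Ifitm6 is a family member described in mouse. Bst2, also called tetherin, holds budding virus particles on the cell surface, and its protein is used in mice as a surface marker of plasmacytoid dendritic cells, the main producers of type I interferon. All of these genes except Ifitm6 are widely known to respond to interferon.

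The 4 Ifitm genes lie side by side on chromosome 7 (GRCm38, GENCODE M21) within 63088 bases. Ifitm2 occupies 140954837 to 140955987 on the minus strand, and Ifitm1 occupies 140967221 to 140969825 on the plus strand. Ifitm3 (141009586 to 141010770) and Ifitm6 (141015699 to 141017924) are both on the minus strand. Bst2 lies on chromosome 8 at 71534255 to 71537456, on the minus strand. The last 300 bases of the annotated transcripts, where 3′ libraries are read, shared none of their 251 stretches of 50 bases between any members. Ifitm2 is overlapped by the annotated readthrough gene Gm45717, which had no row in the table.

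Promoters were read from RefSeq (GRCm38.p6), from 250 bases before to 50 after each annotated start, and all 5 genes matched. They are shown because the genes sit next to each other or share an interferon label, yet differed by class. Capitals mark the core of the interferon-stimulated response element (GAAA, any 2 bases, GAAA) and the gamma-activated sequence (TTC, any 3 bases, GAA), both searched on both strands and allowed to overlap. The windows are chr7:140967826-140968125 (plus), chr7:140955912-140956211 (minus), chr7:141010695-141010994 (minus), chr7:141016843-141017142 (minus) and chr8:71537423-71537722 (minus), all written 5′ to 3′ on the gene's strand.
Ifitm1: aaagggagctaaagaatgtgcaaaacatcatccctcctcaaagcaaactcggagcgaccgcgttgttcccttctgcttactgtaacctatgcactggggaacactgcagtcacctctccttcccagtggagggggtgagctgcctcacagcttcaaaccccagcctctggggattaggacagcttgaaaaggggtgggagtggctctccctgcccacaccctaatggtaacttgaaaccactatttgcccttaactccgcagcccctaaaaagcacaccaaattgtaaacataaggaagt
Ifitm2: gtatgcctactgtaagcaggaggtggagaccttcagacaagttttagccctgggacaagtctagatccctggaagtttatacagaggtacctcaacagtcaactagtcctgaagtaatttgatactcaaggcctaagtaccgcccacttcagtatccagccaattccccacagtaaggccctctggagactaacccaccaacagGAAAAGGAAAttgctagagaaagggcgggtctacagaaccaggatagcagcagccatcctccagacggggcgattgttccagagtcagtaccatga
Ifitm3: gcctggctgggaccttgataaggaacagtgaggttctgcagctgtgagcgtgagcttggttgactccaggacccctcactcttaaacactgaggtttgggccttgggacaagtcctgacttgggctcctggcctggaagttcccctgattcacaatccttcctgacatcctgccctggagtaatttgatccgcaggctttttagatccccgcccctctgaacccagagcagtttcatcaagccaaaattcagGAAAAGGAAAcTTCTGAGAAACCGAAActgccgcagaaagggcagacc
Ifitm6: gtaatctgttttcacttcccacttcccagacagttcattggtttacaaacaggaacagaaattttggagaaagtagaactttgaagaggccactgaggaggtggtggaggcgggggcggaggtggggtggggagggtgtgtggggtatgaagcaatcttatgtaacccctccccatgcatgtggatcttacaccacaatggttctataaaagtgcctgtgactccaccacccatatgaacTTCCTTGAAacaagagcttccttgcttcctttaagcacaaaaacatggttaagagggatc
Bst2: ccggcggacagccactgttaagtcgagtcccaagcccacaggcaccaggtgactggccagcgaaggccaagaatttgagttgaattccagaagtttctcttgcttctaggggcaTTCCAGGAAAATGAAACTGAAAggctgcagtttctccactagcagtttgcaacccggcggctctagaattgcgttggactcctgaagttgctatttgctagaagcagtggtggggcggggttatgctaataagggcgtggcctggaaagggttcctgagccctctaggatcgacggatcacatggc
Ifitm3 and Bst2 each held 2 copies of the response element core and 1 gamma-activated sequence, which overlap in Bst2. In Ifitm3 the gamma-activated sequence overlaps the second core, and 1 base parts it from the first. Ifitm2 held 1 response element core and Ifitm6 held 1 gamma-activated sequence, and the Ifitm1 window held neither. The RefSeq starts of Ifitm1 and Ifitm6 lie inside the GENCODE bounds of these genes, and those of Ifitm2 and Ifitm3 lie slightly inside. What these windows hold therefore depends on the start used. Of 27025 RefSeq promoters of this length, 3.49% held the response element core and 8.47% the gamma-activated sequence.

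The cells were clustered without the 5 genes, and 18 classes were named from marker genes. A name ends in -like because it rests on RNA alone. A level is in CPM, the UMIs of a gene per 1000000 UMIs of its class, with an exact 95% Poisson interval that covers counting error alone. Run values are given as lowest, median and highest over runs with at least 20 cells of the class. Levels are compared between classes and not between genes. Ifitm3 had 139149 UMIs in the table, Ifitm6 had 128141, Ifitm2 had 84894, Bst2 had 36476 and Ifitm1 had 26900.

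**Figure D1:**
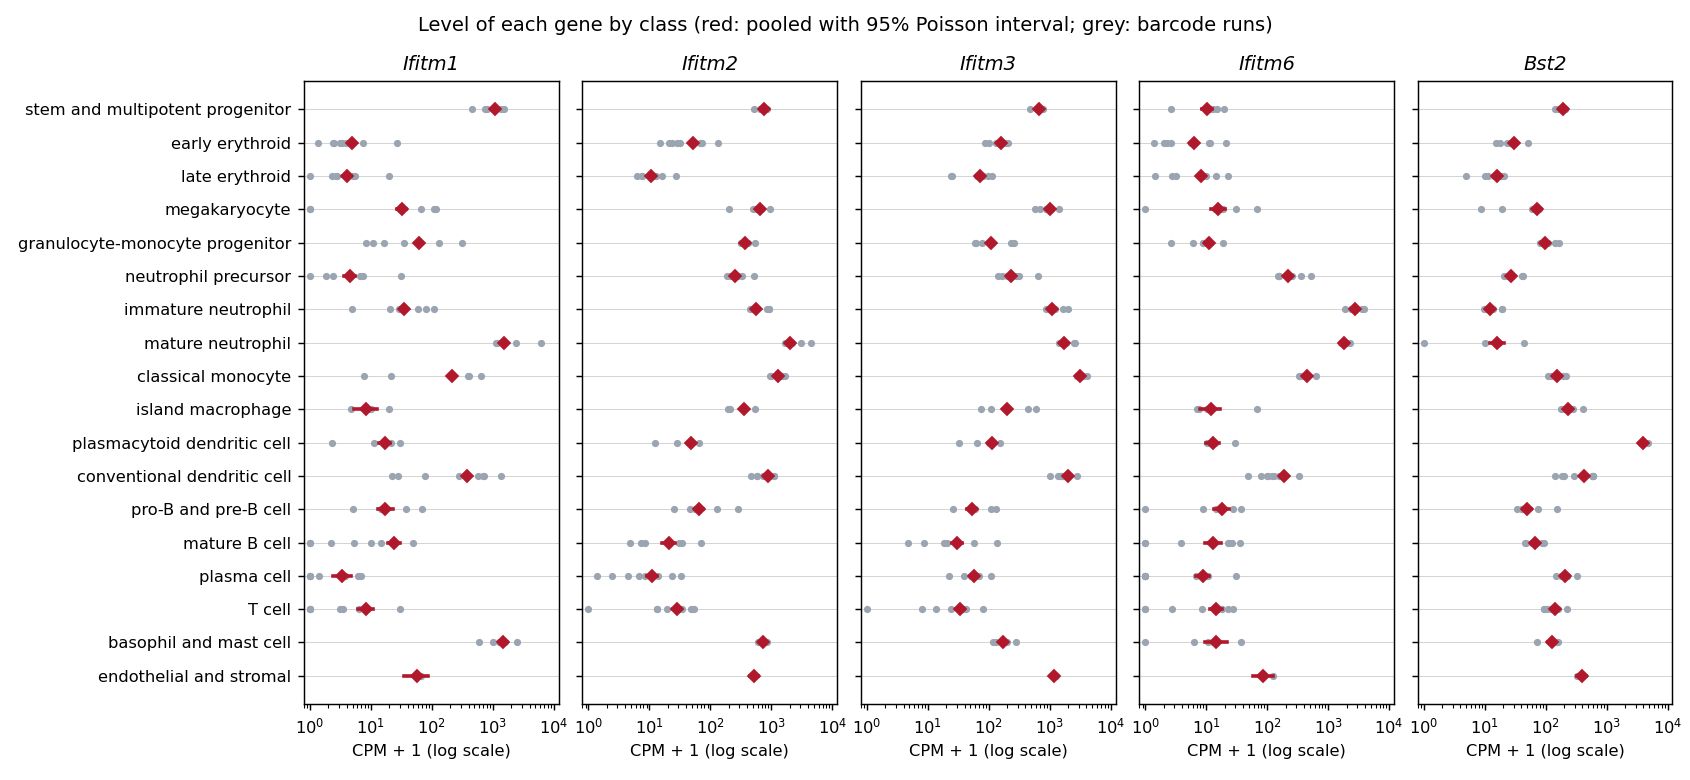
Level of each gene in the 18 named classes, in CPM plus 1 on a log scale, with the pooled level in red and each run with at least 20 cells in grey. Bst2 stands apart at 3953 CPM in plasmacytoid dendritic cell-like cells, Ifitm6 is highest in neutrophil-like cells, and the runs of Ifitm1 span 6.58 to 636 CPM in classical monocyte-like and 21.3 to 1383 CPM in conventional dendritic cell-like cells.

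Differences between classes are log2 ratios of levels raised by 10 CPM each, relative to the median gene, and a gene counted as measured if 1 of the classes had at least 20 CPM. It was called if it was at least 2-fold apart and if the difference had the same sign in every run that held at least 20 cells of both classes. No difference between classes was tested, since no column names a cell's library and the pooled table counts as 1 sample; the runs gave ranges and signs only. The share of all measured genes called by the same rule is given beside the first count of each comparison.

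Along the neutrophil line the 4 Ifitm genes did not follow a common course. Ifitm6 and Ifitm3 were higher at the precursor step and higher again in immature cells, whereas Ifitm1 was lower in precursors than in progenitors and highest in mature cells. Bst2 was low in every neutrophil class. The stages were granulocyte-monocyte progenitor-like cells (713), neutrophil precursor-like cells led by Fcnb (719), immature neutrophil-like cells (2956) and mature neutrophil-like cells led by Stfa2l1 and Il1b (759). The immature class joined a cluster led by Ngp, Ltf and Camp, genes of secondary granules (1619 cells), with a cluster led by Mmp8 and Mmp9, which encode neutrophil collagenase and gelatinase (1337 cells).

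Ifitm6 stood at 10.0 CPM in progenitor-like cells, 217 CPM in precursors, 1923 CPM in the Ltf-led cluster, 4504 CPM in the Mmp8-led cluster and 1817 CPM in mature neutrophil-like cells. The peak in the Mmp8-led cluster held in each of its 5 runs, at 4258 to 6313 CPM, and the 5 runs with mature cells lay at 1597 to 2285.5 CPM, so these ranges did not overlap. Immature neutrophil-like cells alone held 85.3% of all Ifitm6 UMIs, and 15.98% of the UMIs of all genes.

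Ifitm1 stood at 61.2 CPM in progenitor-like cells, 3.51 CPM in precursors, 7.96 CPM in the Ltf-led cluster, 87.1 CPM in the Mmp8-led cluster and 1515 CPM (1474 to 1556) in mature neutrophil-like cells. The 5 runs with mature cells lay at 1506, 1163, 1145, 6163 and 2442 CPM, all above every run of the Mmp8-led cluster, which reached 302 CPM at most. These levels depended on where the clusters parted. Under 7 other ways of filtering or clustering the cells, Ifitm1 lay at 605 to 2012 CPM in mature and 5.99 to 33.5 CPM in immature neutrophil-like cells. The mature level was 614 CPM at resolution 2, where that class held 1560 cells. In progenitors the level was carried by runs 2 and 5, at 316 and 132 CPM, against 7.36 to 34.4 CPM in the other 4 runs, and without run 2 it was 23.0 CPM. At resolution 0.5 of the clustering, where stem and multipotent progenitor-like cells had no cluster of their own, the progenitor-like class had 670 CPM of Ifitm1 and 457 CPM of Ifitm3.

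Ifitm2 stood at 370 CPM in progenitor-like cells, 249 CPM in precursors, 416 CPM in the Ltf-led cluster, 860 CPM in the Mmp8-led cluster and 2015 CPM in mature cells. Ifitm3 stood at 108, 234, 785, 1667 and 1706 CPM in the same order of stages. Over runs, Ifitm2 lay at 1677 to 4430 CPM in mature cells and 649 to 1716 CPM in the Mmp8-led cluster, which overlapped slightly, and Ifitm3 at 1415 to 2597 CPM in mature cells and 1435 to 2677 CPM in the Mmp8-led cluster. Ifitm3 was thus at like levels in both, while Ifitm2 was called higher again in mature cells. Bst2 was at 97.9 CPM in progenitors, 25.5 CPM in precursors, 11.0 CPM in immature and 14.95 CPM in mature neutrophil-like cells.

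**Figure D2:**
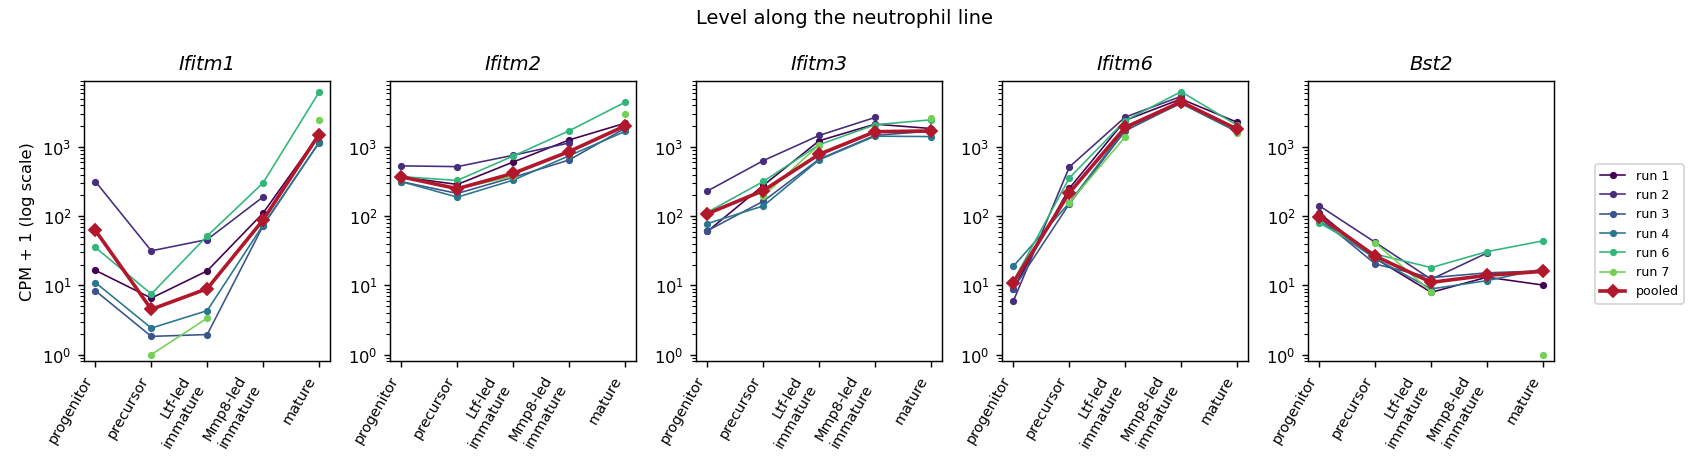
Level of each gene along the neutrophil line, in CPM plus 1 on a log scale, from granulocyte-monocyte progenitor-like to mature neutrophil-like cells, with 1 thin line per run and the pooled level in red. Ifitm6 peaks in the Mmp8-led cluster at 4504 CPM, Ifitm1 dips to 3.51 CPM in precursors and reaches 1515 CPM in mature cells, and Bst2 declines to 11.0 CPM in immature cells.

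Between neutrophil precursor-like cells and progenitor-like cells, Ifitm3 and Ifitm6 were called higher, where the rule called 4.05% of all measured genes higher. Ifitm1 and Bst2 were called lower, where it called 3.85% lower. The differences were 3.76 for Ifitm6 and 1.30 for Ifitm3, against -2.15 for Ifitm1 and -1.35 for Bst2, over 5 runs. The value for Ifitm2, -0.30, was not called. Ifitm1 lost its call at -1.93, since its sign was no longer the same in every run, when cells needed 500 genes and at most 10% mitochondrial UMIs.

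Between immature neutrophil-like cells and precursors, all 4 Ifitm genes were called higher, where 9.03% of measured genes were higher and 5.57% lower, over 6 runs. The differences were 3.86 for Ifitm6, 2.40 for Ifitm3, 1.94 for Ifitm1 and 1.39 for Ifitm2. The call for Ifitm1 was lost, at 0.41 to 0.72, under 3 other ways of filtering or clustering the cells, and that for Ifitm2 was lost at 0.92 when the members were kept among the genes clustered on. Bst2 at -0.50 was not called.

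Between mature and immature neutrophil-like cells, Ifitm1 was 5.14 higher (4.50 to 7.57 in 5 runs) and Ifitm2 was 1.84 higher (1.30 to 2.81), and the rule called 14.7% of measured genes higher. Ifitm3 at 0.68, Ifitm6 at -0.59 and Bst2 at 0.25 were not called, although Ifitm3 was called, at 1.23 at most, under 5 other ways of filtering or clustering the cells. The class with most Ifitm6 also turned with the clusters. Mature cells had the highest level at resolution 2 (3484 CPM) and without the listed interferon genes in the clustering (3464 CPM). They also had it under the filter of 500 genes and 10% mitochondrial UMIs (2505 CPM). Set against the Mmp8-led cluster alone, mature cells were called higher in Ifitm1 (3.83) and Ifitm2 (1.08, or 0.98 without run 3, which ends the call), and lower in Ifitm6 (-1.45). There the rule called 6.92% of genes higher and 5.34% lower. Set against the Ltf-led cluster, the Mmp8-led cluster was called higher in all 4 Ifitm genes, by 2.59 for Ifitm1, 1.38 for Ifitm6, 1.23 for Ifitm3 and 1.18 for Ifitm2, with 9.74% of genes called higher.

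Cells with at least 1 UMI were compared after thinning each cell to 2000 UMIs. Ifitm1 was found in 49.9% of mature neutrophil-like cells, 10.6% of the Mmp8-led cluster, 1.08% of the Ltf-led cluster and 0.422% of precursors. Without thinning these shares were 63.2%, 24.1%, 4.82% and 5.29%. In plasma cell-like cells, in which Ifitm1 was at 2.30 CPM (1.36 to 3.64), the thinned share was 0.955% and the unthinned share 3.44%. Their median depth was 13982 UMIs, against 15411 in the Ltf-led cluster. The thinned shares in precursors and in the Ltf-led cluster thus could not be told from that of plasma cell-like cells. By pooled level the Ltf-led cluster lay above plasma cell-like cells, at 7.96 CPM (6.93 to 9.10). Its runs spanned 0.948 to 50.8 CPM, against 0 to 5.81 CPM in plasma cell-like cells. Precursors, at 3.51 CPM (2.67 to 4.54), overlapped with plasma cell-like cells. Ifitm6 was found in 75.8% of thinned mature cells, 99.8% of the Mmp8-led cluster, 88.3% of the Ltf-led cluster and 24.3% of precursors, and in 77.2%, 99.6%, 97.7% and 59.1% without thinning, against 1.27% of plasma cell-like cells with thinning and 7.74% without. All 4 Ifitm genes were found together in 28.6% of 623 thinned mature cells, 8.46% of 1312 cells of the Mmp8-led cluster, 0.507% of 1579 of the Ltf-led cluster and 0.141% of 711 precursors. Thinning left out 136 mature cells, 25 and 40 cells of the Mmp8-led and Ltf-led clusters and 8 precursors as too shallow.

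Of the 30 listed type I interferon response genes, 21 were measured between mature and immature neutrophil-like cells, and 16 were called higher and 0 lower (median 1.65 relative to the median of all measured genes). Rsad2, which encodes viperin, an antiviral enzyme, had 216 CPM in mature against 14.0 CPM in immature cells, and Ifi27l2a had 998 against 97.6 CPM. Of other restriction factors, 5 of 9 measured were higher and 0 lower, among them Ly6e, a surface protein that hinders coronavirus entry, at 196 CPM in mature against 36.2 CPM in immature cells. Of genes for known partners and modifiers of these proteins, 0 of 8 measured were higher and 4 were lower, where the rule called 15.7% of genes lower. These were the metalloprotease Zmpste24 (8.46 CPM in mature against 224 CPM in immature cells), the tetraspanin Cd81 (9.03 against 89.7 CPM), the ubiquitin ligase Nedd4 (15.2 against 65.6 CPM) and the tetraspanin Cd63 (157 against 429 CPM). Between immature cells and precursors, where all 4 Ifitm genes were higher, 3 of 8 measured interferon response genes were higher and 0 lower. Between precursors and progenitors, where Ifitm6 and Ifitm3 were higher, 0 of 2 were called.

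Outside the neutrophil line Ifitm6 was set beside the abundant neutrophil RNAs S100a8 and S100a9. Immature and mature neutrophil-like cells had 8.07 Ifitm6 UMIs per 1000 S100a8 and S100a9 UMIs. In the 14 classes and clusters with under 30 CPM of Ifitm6 and under 5000 CPM of both S100 genes, the ratio was 5.46 to 13.9, with a median of 8.45. These groups were picked by their low Ifitm6, so the range is a description, and the part of free RNA in their values was not tested. Classical monocyte-like cells had a ratio of 126, conventional dendritic cell-like cells 178 and the Fcgr4-high phagocyte cluster 77.5, all above the neutrophil-like value. Granulocyte-monocyte progenitor-like cells had only 0.279.

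**Figure D3:**
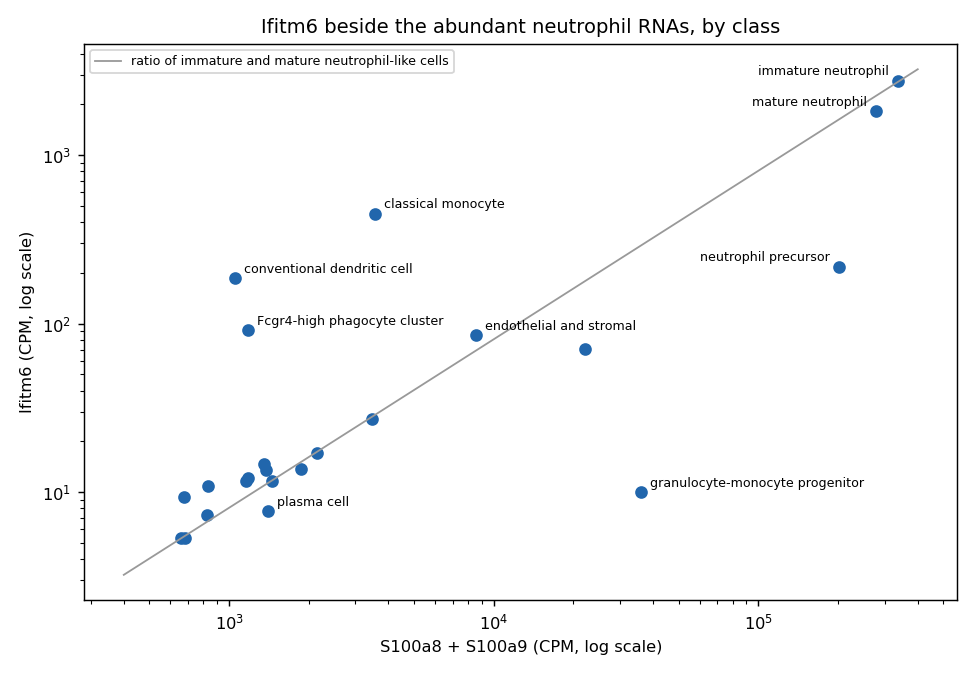
Level of Ifitm6 against the summed level of S100a8 and S100a9 in each class or cluster, both in CPM on log scales, with the line showing the ratio of neutrophil-like cells (8.07 per 1000). The 14 groups low in both lie at ratios of 5.46 to 13.9, and classical monocyte-like, conventional dendritic cell-like and Fcgr4-high phagocyte cells lie above it at ratios of 126, 178 and 77.5.

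Classical monocyte-like cells (740) had the highest Ifitm3 level of all named classes, at 3154 CPM (3123 to 3185), with 2754, 3295 and 4089 CPM as the lowest, median and highest of 5 runs. Conventional dendritic cell-like cells, at 1998 CPM, and mature neutrophil-like cells, at 1706 CPM, came next, and the run ranges of these neighbours overlapped. Under 4 other ways of filtering or clustering the cells, the dendritic class had 597 to 852 CPM and lost its place to mature neutrophil-like cells, which had 1631 to 1756 CPM. Ifitm3 was found in 96.7% of thinned and 99.9% of unthinned monocyte-like cells (median 16604 UMIs), against 6.15% and 11.6% of mature B cell-like cells (5038 UMIs). Ifitm2 stood at 1276 CPM in these cells, Ifitm6 at 448 CPM (330, 399 and 638 CPM over the runs) and Bst2 at 153 CPM (106, 161 and 216 CPM over the runs).

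Island macrophage-like cells (433), led by Cd5l, Hmox1 and Vcam1, were called lower than classical monocyte-like cells in Ifitm2, Ifitm3 and Ifitm6, where 11.9% of measured genes were called lower. Ifitm3 stood at 199 CPM in macrophage-like against 3154 CPM in monocyte-like cells (-3.88), Ifitm2 at 360 against 1276 CPM (-1.75) and Ifitm6 at 10.8 against 448 CPM (-4.41). The pooled levels come largely from different runs, since runs 6 and 7 held 146 macrophage-like cells each but 1 and 8 monocyte-like cells. Only run 3, with 27 macrophage-like cells, and run 5, with 20 monocyte-like cells, had at least 20 of both. There the differences were -5.03 to -2.52 for Ifitm3, -2.27 to -1.37 for Ifitm2 and -4.33 to -3.04 for Ifitm6. The macrophage-like level of Ifitm3 was 123 CPM without run 6, 303 CPM without run 7 and 446 CPM under the filter of 500 genes and 10% mitochondrial UMIs. The call for Ifitm2 was lost, at -0.43 to -0.71, under 5 other ways of filtering or clustering the cells. Ifitm1 (-3.65) did not keep its sign in the 2 runs that held both classes and was not called, nor was Bst2 at 230 against 153 CPM (0.60). Of the interferon response genes 8 of 27 measured were higher, where 15.5% of all genes were, and 3 were lower. Rsad2 stood at 309 CPM in macrophage-like against 20.9 CPM in monocyte-like cells, the opposite direction to Ifitm3. Cd81 (831 against 12.1 CPM) and Cd63 (463 against 8.60 CPM) were also higher.

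The Fcgr4-high phagocyte cluster (376 cells) had as many markers of non-classical monocytes as of island macrophages and was left without a class. It kept Ifitm2 at 1205 CPM against 1276 CPM in classical monocyte-like cells (-0.07). Ifitm3 was called lower (901 against 3154 CPM, -1.78), as was Ifitm6 (91.3 against 448 CPM, -2.16), where the rule called 8.15% of genes lower and 10.5% higher. Ifitm1 at -2.62 and Bst2 at -0.85 did not keep their sign in all 4 runs compared and were not called. Without run 7 its Ifitm6 level was 138 CPM. Ifitm3 in this cluster was uneven, at 1522, 2147, 1425, 521, 2330 and 308 CPM in runs 1, 3, 4, 5, 6 and 7, with runs 5 and 7 low. In island macrophage-like cells the same runs 5 and 7 were low, at 110 and 74.0 CPM, against 595 and 440 CPM in runs 3 and 6. Ifitm2 in the Fcgr4-high cluster was also lowest in runs 5 and 7, at 1116 and 1020 CPM against 1135 to 2272 CPM in the other 4 runs. In macrophage-like cells Ifitm2 was higher in runs 5 and 7, at 539 and 358 CPM, against 192 and 207 CPM in runs 3 and 6. Which libraries these runs are is not known.

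Ifitm1 was more uneven still among myeloid cells. Classical monocyte-like cells had 410, 396, 6.58, 20.6 and 636 CPM in runs 1 to 5, so runs 3 and 4 were low and the others high. Conventional dendritic cell-like cells had 727, 1383, 21.3, 75.6, 575, 26.9, 685 and 282 CPM in runs 1 to 8, with runs 3, 4 and 6 low. Stem and multipotent progenitor-like cells were also lower in runs 3, 4 and 6, at 813, 460 and 736 CPM, against 1352 and 1532 CPM in runs 1 and 2. In mature neutrophil-like cells run 6 was the highest, at 6163 CPM. Pooled values of Ifitm1 in monocyte-like (215 CPM) and conventional dendritic cell-like cells (376 CPM) therefore describe no single run. Monocyte-like cells had 141 CPM without run 1, and the dendritic class 229 CPM without run 2 and 582 CPM without run 6.

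**Figure D4:**
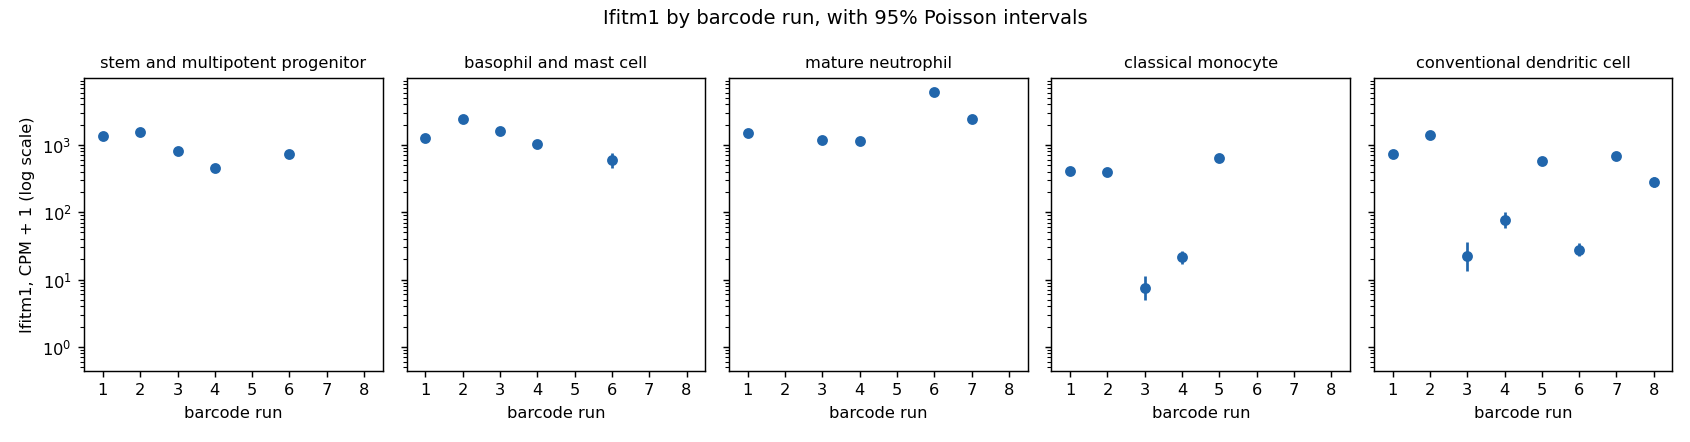
Ifitm1 level in each run, in CPM plus 1 on a log scale with 95% Poisson intervals, for the 5 named classes where it was highest; runs with under 20 cells of a class are absent. In classical monocyte-like cells runs 3 and 4 lie at 6.58 and 20.6 CPM and the other 3 at 396 to 636 CPM, while all 5 runs of stem and multipotent progenitor-like cells lie at 460 to 1532 CPM.

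Among dendritic cells Bst2 and the Ifitm genes went opposite ways. Plasmacytoid dendritic cell-like cells (1059, of which 80.4% came from run 6) had 3953 CPM (3898 to 4007), and their 4 runs with enough cells lay between 3715 and 4807 CPM. These cells held 55.7% of all Bst2 UMIs, and 2.07% of the UMIs of all genes. Bst2 was found in 98.9% of thinned and 99.2% of unthinned plasmacytoid cells, at a median of 3617 UMIs. In immature neutrophil-like cells, at 11397.5 UMIs, these shares were 2.14% and 11.2%. Conventional dendritic cell-like cells (824, of which 58.4% came from run 6) came next among named classes, at 419 CPM. Their run range, 140.1 to 606 CPM, did not overlap with that of the plasmacytoid class. Against conventional dendritic cell-like cells, plasmacytoid cells were called higher in Bst2 (3.13, 2.50 to 3.55 in 4 runs), where 7.94% of measured genes were called higher.

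All 4 Ifitm genes were called lower in plasmacytoid than in conventional dendritic cell-like cells, where 9.48% of genes were. Ifitm3 stood at 113 CPM in plasmacytoid against 1998 CPM in conventional cells (-4.11), Ifitm2 at 47.5 against 898 CPM (-4.06), Ifitm1 at 15.95 against 376 CPM (-3.97) and Ifitm6 at 11.7 against 187 CPM (-3.26). The Ifitm1 difference ran from -5.34 to -0.37 over 4 runs, and in run 6, which held most plasmacytoid cells, Ifitm1 stood at 20.03 CPM in plasmacytoid against 26.9 CPM in conventional cells. Run 6 held 481 of the conventional cells but only 1 classical monocyte-like cell, and whether monocytes joined this class was not tested. In run 6 the conventional class had Ifitm3 at 2803 CPM, against 994 to 1724 CPM in its other runs. Its Ifitm6 was at 332 CPM there, against 48.0 to 153 CPM. Without run 6, plasmacytoid cells had Ifitm3 at 61.5, Ifitm2 at 22.8 and Ifitm1 at 10.3 CPM, and conventional cells had Ifitm6 at 101 CPM. At resolution 2 the Ifitm3 difference was -2.30. Under 4 other ways of filtering or clustering the cells, conventional cells had Ifitm2 at 434 to 548 CPM and Ifitm6 at 44.6 to 62.1 CPM. Of the interferon response genes 13 of 25 measured were lower and 3 higher (median -1.02). Ifit3, for instance, stood at 2.33 CPM in plasmacytoid against 49.7 CPM in conventional cells. Of the other restriction factors, 2 of 10 measured were called higher and 1 lower. The higher ones were Serinc5 (75.3 against 4.02 CPM) and Apobec3 (372 against 146 CPM). In conventional dendritic cell-like cells Bst2 itself lay at 606, 585, 582 and 601 CPM in runs 1 to 4 and at 200.4, 291, 188 and 140.1 CPM in runs 5 to 8, so these runs did not overlap.

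In the B line, plasma cell-like cells (465) were called higher than mature B cell-like cells (601) in Bst2, at 208 against 64.5 CPM (2.53), and in Ifitm3, at 56.8 against 29.6 CPM (1.74), where 10.8% of genes were called higher and 8.21% lower. The call for Ifitm3 was lost on plain totals, at 0.75. Ifitm1 (2.30 CPM in plasma cell-like cells) and Ifitm2 (10.1 CPM) were low there, Ifitm1 at -0.44 was not called, and Ifitm2 and Ifitm6 did not reach the minimum level in either class. Isg20, an antiviral exonuclease, was higher in plasma cell-like cells (96.5 against 18.4 CPM in mature B cell-like cells). Mature B cell-like cells set against pro-B and pre-B cell-like cells (579) had 0 members called, where 8.89% of measured genes were higher and 7.28% lower. Ifitm6 did not reach the minimum level in either of these classes. T cell-like cells, a class that also held NK cell markers, had Bst2 at 144 CPM and Ifitm3 at 32.7 CPM.

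Stem and multipotent progenitor-like cells (720) had Ifitm1 at 1083 CPM (1061 to 1104), Ifitm2 at 762 CPM, Ifitm3 at 665 CPM and Bst2 at 188 CPM. They held 36.4% of all Ifitm1 UMIs, and 3.65% of the UMIs of all genes. Ifitm1 was found in 66.7% of these cells after thinning and 85.4% before. Basophil and mast cell-like cells (147) had a like Ifitm1 level, 1466 CPM (593, 1278 and 2454 CPM over the runs), with Ifitm3 at 173 CPM. Mature neutrophil-like, basophil and mast cell-like and stem and multipotent progenitor-like cells overlapped in run range for Ifitm1, so their order was not settled. Against stem and multipotent progenitor-like cells, granulocyte-monocyte progenitor-like cells were called lower in Ifitm1 (61.2 against 1083 CPM, -3.64) and Ifitm3 (108 against 665 CPM, -2.22), where 8.69% of genes were called lower and 8.9% higher. Ifitm2 at 370 against 762 CPM (-0.72) and Bst2 at 97.9 against 188 CPM (-0.57) were not called. Of 15 interferon response genes measured, 0 were higher and 5 lower.

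Early erythroid-like cells (4747) were called lower than stem and multipotent progenitor-like cells in Ifitm1 (3.89 against 1083 CPM, -5.83), Ifitm2 (51.3 against 762 CPM, -3.19), Bst2 (29.1 against 188 CPM, -1.87) and Ifitm3 (160 against 665 CPM, -1.52), where the rule called 17.9% of genes lower. Ifitm6 had 5.32 CPM in early erythroid-like and 9.39 CPM in stem and multipotent progenitor-like cells. Early erythroid-like cells had Ifitm2 at 29.7 CPM without run 6 and Ifitm1 at 1.77 CPM without run 2. Of the interferon response genes 6 of 18 measured were higher, where 18.5% of all genes were, and 3 were lower. Isg15, a ubiquitin-like protein, stood at 322 CPM in early erythroid-like against 47.5 CPM in stem and multipotent progenitor-like cells. Of the other restriction factors, 3 of 11 measured were called higher and 2 lower. Isg20, for instance, was higher, at 362 against 24.6 CPM, and Ly6e was lower, at 240 against 951 CPM.

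Late erythroid-like cells (4093) were 78.3% globin by UMI, which lowers the CPM of every other gene, and the median gene lay 1.68 lower on plain totals than in early erythroid-like cells. Relative to the median gene, Bst2 was called higher (1.01), where 12% of genes were, but on plain totals its difference was -0.67 (14.6 CPM in late against 29.1 CPM in early cells). Ifitm3 (70.1 against 160 CPM) also turned with the scaling, at 0.59 when centred and -1.08 on plain totals, and Ifitm2 (9.69 against 51.3 CPM) was at 0.04 and -1.64. With globin left out of the totals Ifitm3 was called higher, at 1.40. The call for Bst2 was lost without run 2, 3 or 7, at 0.99, 0.94 and 0.96. Of the interferon response genes, 13 of 14 measured were higher and 0 lower (median 1.96), with Rsad2 at 845 against 140 CPM.

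The 10180 erythroid-like cells, those of the tied cluster among them, were also ordered by the globin share of each cell. The ranges were under 2, 2 to 20, 20 to 60, 60 to 80 and at least 80%, with 150 to 475 cells lying within 1 point of a limit. With globin left out of the totals, Ifitm3 stood at 150, 231, 266, 280 and 339 CPM, whereas on all UMIs it was highest at 2 to 20% globin, at 206 CPM, and 34.8 CPM at the end. The median cell had 3465, 8899, 9520, 8084.5 and 8535.5 UMIs in these ranges, and the part of depth in counts per cell was not tested. Per 1000 cells Ifitm3 had 1280, 2526, 1692, 783 and 333 UMIs, while Isg15 had 412, 1995, 7597, 12122 and 9052. Ifitm2 went another way, with 182, 56.2, 19.3, 37.2 and 88.7 CPM without globin, and its UMIs per 1000 cells fell at each step to 87.1 in the last range, against 1554 in the first. Bst2 stood at 72.2, 28.0, 36.3, 62.5 and 53.8 CPM without globin. Ifitm6 was at 5.63, 5.90, 9.87, 23.0 and 61.3 CPM, and S100a8 at 302, 339, 601, 1260 and 3153 CPM. The part of free RNA in the late values of these genes was not tested.

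**Figure D5:**
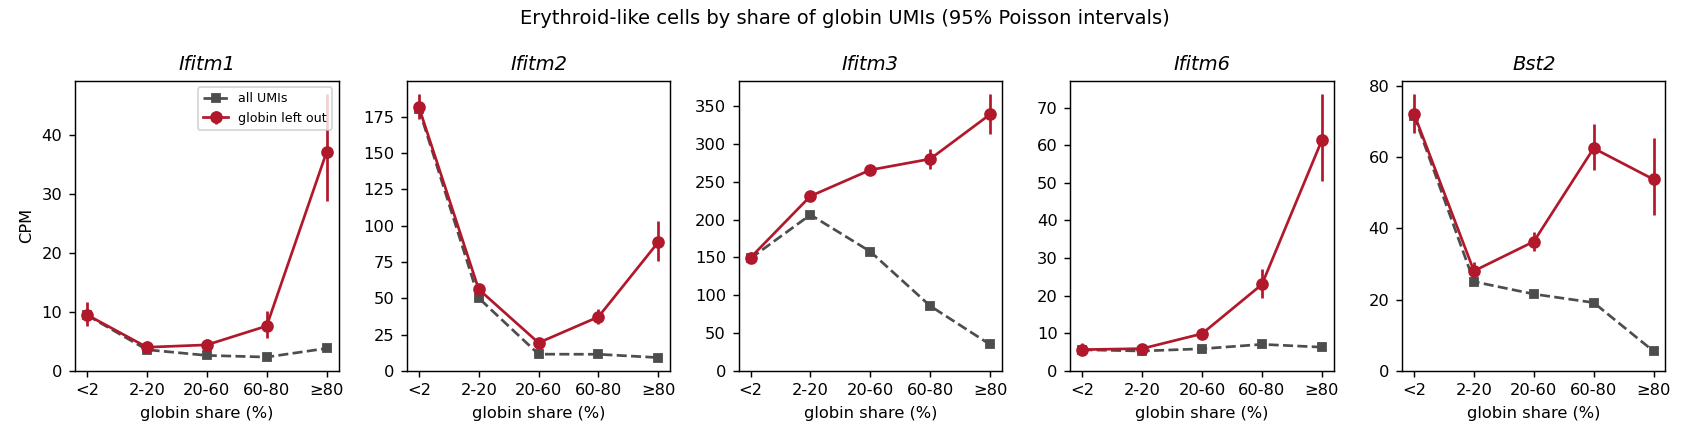
Level of each gene in erythroid-like cells by the globin share of the cell, in CPM with globin left out of the totals (red, with 95% Poisson intervals) and in CPM of all UMIs (grey). Ifitm3 reaches 339 CPM without globin but 34.8 CPM of all UMIs in cells of at least 80% globin, and Ifitm6 reaches 61.3 CPM without globin.

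Across the 18 named classes, Ifitm2 and Ifitm3 were most alike (Pearson r of 0.86 on log2 levels), followed by Ifitm1 and Ifitm2 (0.75) and by Ifitm3 and Ifitm6 (0.70), while Bst2 had r of -0.32 to 0.06 with the Ifitm genes. These values describe classes that share libraries and depth. The genes whose pattern was most like that of Ifitm6 were Trem1 (0.96), Rasgrp4 (0.95), Mcemp1 (0.94), Pabpc1l (0.93) and Cd177 (0.93). For Bst2 they were Gatsl2 (0.91), Slc39a14 (0.90), Lmf1 (0.89), Slc27a1 (0.88) and Cdc14b (0.87). For Ifitm1 they were Ptgs2 (0.85), Gcnt2 (0.81), Ccdc180 (0.80), Nlrp3 (0.79) and Osm (0.79), and for Ifitm2 they were Flot1 (0.90), Mapk14 (0.90), Rab31 (0.87), Ier3 (0.87) and Pgm1 (0.87). For Ifitm3 they were Ifitm2 (0.86), Adam15 (0.86), Lyz2 (0.82), Gcnt2 (0.82) and Cxcl2 (0.81).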

How the data were processed

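The deposited file holds UMI counts for each gene in each cell, with no normalisation. Cell Ranger 5.0.0, Seurat 3.1.5 and mm10 are named in the submitters' processing notes, and how the authors filtered cells was not stated in the notes or labels. The members and lists were chosen with earlier results of these data known.

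No column tied a cell to a library, so the planned edgeR test of transgenic against control marrow was not made, and the 8 barcode runs gave ranges and were each left out in turn. Cells needed 200 genes and at most 20% mitochondrial UMIs, which removed none, and 17 doublets called by Scrublet (0.0682%) were left out. The other 24925 cells were clustered in scanpy 1.11.5 under Python 3.11.15 from 2000 variable genes without the members, 30 principal components and 15 neighbours, with leidenalg 0.10.2 at resolution 1. The 31 clusters were named by the class, of 22, with most markers among the 50 leading genes, and 3 clusters (2127 cells) stayed unnamed. A cluster of 1340 cells tied between the early and late erythroid classes and was kept apart, as was the tied Fcgr4-high cluster. No cluster was named non-classical monocyte-like at resolution 1, so that comparison was not made, although 1 was named at resolution 2. UMIs were summed per class, and the calculation was tested on simulated data.

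Named were the 5 members, up to 4 genes of each list with the largest differences in a comparison, and the 5 genes most like each member. Among the listed genes, 1 is not reported here. Of 57 listed genes 55 had a row. The comparisons of the Fcgr4-high cluster, of the 2 immature clusters and of granulocyte-monocyte with stem and multipotent progenitors were added after the data were seen. Alternatives covered clustering, cell filters, doublet scores, scaling, pseudocount, minimum level and repeated barcodes.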

Additional observations from a re-analysis of the deposited data

How the results depend on the processing

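No paired analysis was possible because the columns carry no replicate numbers, and differences within runs served only for ranges and signs. Of 730 single differences under the alternatives, 699 kept their direction and call, 16 lost the call, 13 gained it and 2 reversed. The 2 that reversed were Bst2 between late and early erythroid-like cells on plain totals (-0.67) and with no minimum level (-0.50), as the construction of both changes the centring. Of 166 counts of called members and of top classes, 154 stayed within 1.5 times. Members called between late and early erythroid-like cells numbered 1, and 0 at resolution 2, 0 without the listed interferon genes in the clustering, 3 with globin left out of the totals, 2 on plain totals, 2 with 1 CPM added, and 0 at the lowest when leaving out 1 run. For immature neutrophil-like cells against precursors the count was 4, and 2 with members kept among the genes clustered on. For plasma cell-like against mature B cell-like cells it was 2, and 1 on plain totals or with no minimum level. The cause of these changes was not tested.

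Of the 5 members, the class with the highest level was unchanged for 2 at resolution 2, for 3 under the filter of 500 genes and 10% mitochondrial UMIs, and for 3 without the interferon genes in the clustering. At resolution 2 the mature neutrophil-like class held 1560 cells instead of 759 and had the highest Ifitm6 (3484 CPM), and Ifitm1 was highest in stem and multipotent progenitor-like cells (1269 CPM) and Ifitm2 in non-classical monocyte-like cells (1404 CPM). Ifitm1 was highest in basophil and mast cell-like cells without run 1, 6 or 7, and with the highest 6% of doublet scores left out (1484 CPM). Some classes had no cluster under an alternative, such as neutrophil precursor-like cells at resolution 0.5 or 2, and no value was given. Classes of few or shallow cells, the 61 endothelial and stromal-like cells above all, limit what low levels can show.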

Other observations

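Clusters left without a class also held Ifitm genes. A cluster of 682 shallow cells (median 747.5 UMIs) led by Prg2, Epx and Cd34 had Ifitm1 at 742 CPM, or 478 CPM without barcodes found in more than 1 run. A cluster of 1309 cells led by Fcgr4, Fabp4 and Gngt2 (median 806 UMIs) had Ifitm2 at 1501 CPM. Endothelial and stromal-like cells (61) had Ifitm3 at 1190 CPM, Ifitm2 at 526 CPM and Bst2 at 388 CPM, and megakaryocyte-like cells (541) had Ifitm3 at 1004 CPM and Ifitm2 at 648 CPM. Of the remaining family genes in the table, Ifitm10 had 488 UMIs, Ifitm5 had 169 and Ifitm7, on chromosome 16, had 46, and none reached the minimum level in any comparison.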
